A study of Mus musculus with 4 samples.

Results

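The 10 imprinted mouse loci described are Snrpn, Peg3, Mest, Plagl1, Grb10, Impact, Kcnq1ot1, Nap1l5, Zrsr1 and Igf2r. They are 10 of 49554 genes in the RefSeq table of the mm10 genome and were chosen by name, as loci whose germline methylation comes from the mother. Each region ran from 5 kb before to 5 kb after the gene, and together the regions held 7658 listed CpGs in 944 of the 2506151 bins of 1 kb that the genome gave. Whole-genome bisulfite sequencing was carried out on genomic DNA of mouse embryonic stem cells, 2 libraries from Ogt iKO cells and 2 from control cells. All cells carried the floxed Ogt fl/fl alleles and grew on feeder fibroblasts in medium with LIF and serum replacement. The iKO cells were exposed to 4-OHT (4-hydroxytamoxifen) for 6 days and sorted for YFP, and the control cells were cultured without the drug. Drug, sort gate and loss of Ogt therefore cannot be told apart, and the deletion of Ogt itself was not examined here. Feeders were removed by sorting, but no expression was measured, so the cell type could not be checked against markers. The labels do not say that the replicates were separate cultures, and p-values rest on these libraries only. Libraries held 63985703 to 79563364 reads over CpGs of the autosomes and X, a mean of 3.36 to 4.05 reads per CpG. Over all CpGs, iKO replicate 1 stood at 65.5%, iKO replicate 2 at 63.3%, control replicate 1 at 70.3% and control replicate 2 at 73.8%, so the whole genome was lower in iKO by 7.65 percentage points.

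In genomic imprinting a gene is expressed from the copy of 1 parent only. At maternally methylated loci the oocyte methylates a CpG-rich element, often a promoter, and the sperm does not. The difference then outlasts the removal of methylation in the early embryo, in part because the zinc finger protein ZFP57 and its partner TRIM28 bind the methylated copy and recruit DNA methyltransferases. In a cell that keeps such an imprint, 1 of the 2 copies is methylated, so that the pooled reads of both copies should stand near 50%. Embryonic stem cells in culture are known to lose or gain imprints, often differently from line to line. OGT attaches the sugar N-acetylglucosamine to proteins and binds the TET enzymes, which oxidise 5-methylcytosine (5mC) to 5-hydroxymethylcytosine (5hmC). Bisulfite sequencing reads 5mC and 5hmC alike, and a level here is the share of methylated reads of either kind.

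The imprinted element of each locus was located by CpG density. A CpG-dense block was a run of 1 kb bins with at least 20 listed CpGs each, joined over a gap of 1 bin, and the 10 regions held 31 of the 78616 such blocks. Of a locus's blocks whose level, pooled over all 4 libraries, lay between 25% and 75%, the one with the most CpGs was called its imprint block. That choice used the overall level, so a level near 50% is a description, while the difference between groups was not used. Every locus had an imprint block. On mm10, those of Grb10 at chr11:12025001-12027000 with 163 CpGs, Impact at chr18:12972001-12975000 with 147 and Igf2r at chr17:12741001-12743000 with 102 lay inside the gene. The Igf2r block held the start of Airn, a non-coding RNA antisense to Igf2r.

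The Snrpn block, at chr7:60004001-60005000 with 35 CpGs, also lay inside the gene. Other imprint blocks lay at chr7:6728001-6732000 for Peg3 with 136 CpGs, chr6:30733001-30739000 for Mest with 208 and chr10:13090001-13092000 for Plagl1 with 112. The blocks of Kcnq1ot1 at chr7:143295001-143297000 with 101 CpGs, Nap1l5 at chr6:58906001-58908000 with 75 and Zrsr1 at chr11:22972001-22974000 with 113 held the start of the gene and lay within a host gene, Kcnq1, Herc3 and Commd1 respectively. The Peg3 block also held the start of Usp29, the Plagl1 block that of Hymai and the Zrsr1 block the start of a Commd1 transcript.

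The 250 bases before the start of transcription are shown for 5 loci whose start lay in the imprint block, to show how CpG-dense the promoter of each is. The windows of Mest, Plagl1, Nap1l5 and Kcnq1ot1 lie inside the block, while the CpGs of the Zrsr1 window lie just before it. Sequences are from RefSeq, build GRCm38.p6, 5′ to 3′ on the gene's strand, with the letters CG of each CpG in capitals. They lie at chr11:22971755-22972004 for Zrsr1 on the plus strand, chr6:30737800-30738049 for the more CpG-rich start of Mest on the plus strand, chr10:13090582-13090831 for Plagl1 on the plus strand, chr6:58907127-58907376 for Nap1l5 on the minus strand and chr7:143296548-143296797 for Kcnq1ot1 on the minus strand.
Zrsr1: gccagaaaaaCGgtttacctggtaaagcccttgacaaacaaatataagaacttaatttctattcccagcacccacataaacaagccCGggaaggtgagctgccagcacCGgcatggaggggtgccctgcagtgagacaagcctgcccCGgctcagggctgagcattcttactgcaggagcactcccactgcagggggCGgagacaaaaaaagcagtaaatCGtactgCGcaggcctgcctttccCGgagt
Mest: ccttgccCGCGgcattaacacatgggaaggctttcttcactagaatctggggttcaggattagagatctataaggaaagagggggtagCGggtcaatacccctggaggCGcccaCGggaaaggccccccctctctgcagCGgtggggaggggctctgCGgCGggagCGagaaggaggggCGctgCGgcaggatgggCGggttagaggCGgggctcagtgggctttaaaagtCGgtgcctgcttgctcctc
Plagl1: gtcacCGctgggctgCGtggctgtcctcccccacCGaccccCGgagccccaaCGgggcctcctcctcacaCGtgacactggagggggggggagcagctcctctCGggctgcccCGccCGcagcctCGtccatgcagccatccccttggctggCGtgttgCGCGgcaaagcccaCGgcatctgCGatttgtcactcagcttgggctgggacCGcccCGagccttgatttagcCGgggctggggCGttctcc
Nap1l5: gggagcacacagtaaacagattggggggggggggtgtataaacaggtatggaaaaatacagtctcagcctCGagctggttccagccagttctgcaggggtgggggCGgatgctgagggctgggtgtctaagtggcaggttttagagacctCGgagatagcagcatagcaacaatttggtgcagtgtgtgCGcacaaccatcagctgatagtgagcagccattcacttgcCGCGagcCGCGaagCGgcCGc
Kcnq1ot1: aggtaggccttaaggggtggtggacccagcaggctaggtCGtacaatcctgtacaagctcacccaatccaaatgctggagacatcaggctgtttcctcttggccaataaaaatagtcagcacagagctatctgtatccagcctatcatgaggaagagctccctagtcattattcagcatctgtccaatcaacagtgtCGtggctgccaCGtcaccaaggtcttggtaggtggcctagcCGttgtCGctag
The windows held 8, 14, 19, 10 and 5 CpGs in that order, and all of them were listed in the deposited tables. The hexamer TGCCGC, the recognition motif of ZFP57, or its reverse complement GCGGCA was found at 2 places in the Mest window and at 1 each in those of Plagl1 and Nap1l5, with no match in the Zrsr1 and Kcnq1ot1 windows. Each match contains 1 of the CpGs in capitals. Of all 32851 RefSeq promoter windows of this length 8.68% held the hexamer, and 18.3% did among the 12417 windows with at least 10 CpGs. A match is a sequence description and says nothing of binding.

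Few reads covered each promoter window. In the Plagl1 window, methylated reads numbered 1 of 9 and 18 of 36 in iKO (replicates 1 and 2, the order used throughout) and 25 of 32 and 26 of 28 in control. Both iKO libraries were below both controls there, on 9 to 36 reads. In the Nap1l5 window 31 of 54 and 21 of 26 reads were methylated in the iKO libraries, against 0 of 20 and 18 of 28 in the controls. Control replicate 1 alone had no methylated read. The Mest window gave 24 of 41 and 20 of 46 methylated reads in iKO and 14 of 38 and 7 of 19 in control. The Zrsr1 window gave 4 of 13 and 8 of 36 against 5 of 13 and 6 of 24. The Kcnq1ot1 window gave 16 of 33 and 8 of 21 against 7 of 8 and 1 of 5, with controls on either side of both iKO libraries. The Peg3 window, whose sequence is not shown, gave 26 of 35 and 7 of 41 against 5 of 6 and 0 of 43. Its replicates lay far apart in both groups, although those of the whole Peg3 block did not. Another window, named after its values were seen, lies before the Commd1 start inside the Zrsr1 block. It had 0 methylated of 17 reads in iKO replicate 1 and 0 of 39 in iKO replicate 2, against 19 of 45 and 19 of 54 in control.

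Of the 10 imprint blocks, 1 was called lower in iKO cells, that of Zrsr1, and none was called higher. A feature was called where its adjusted p was under 0.05 in a quasi-binomial model of methylated and total reads, fitted over all features of its kind, and the group means differed by at least 10 points. By that rule 3.14% of all 77534 CpG-dense blocks tested were called. Of the 36204 with an overall level of 25% to 75%, the range of the imprint blocks, 1991 were called lower and 4 higher. Of the 10 imprint blocks 7 were lower in iKO, and in 4, those of Peg3, Mest, Zrsr1 and Igf2r, both iKO libraries lay below both controls. This order of the libraries held in 50.2% of all CpG-dense blocks, and in 58.5% of the 36204 whose overall level was 25% to 75%. Both iKO libraries lay above both controls in 1 imprint block, that of Kcnq1ot1, against 3.67% of all blocks and 2.05% of those at 25% to 75%. The median difference was -3.73 points over the imprint blocks, -7.06 over all CpG-dense blocks and -10.9 over those at 25% to 75%.

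**Figure D1:**
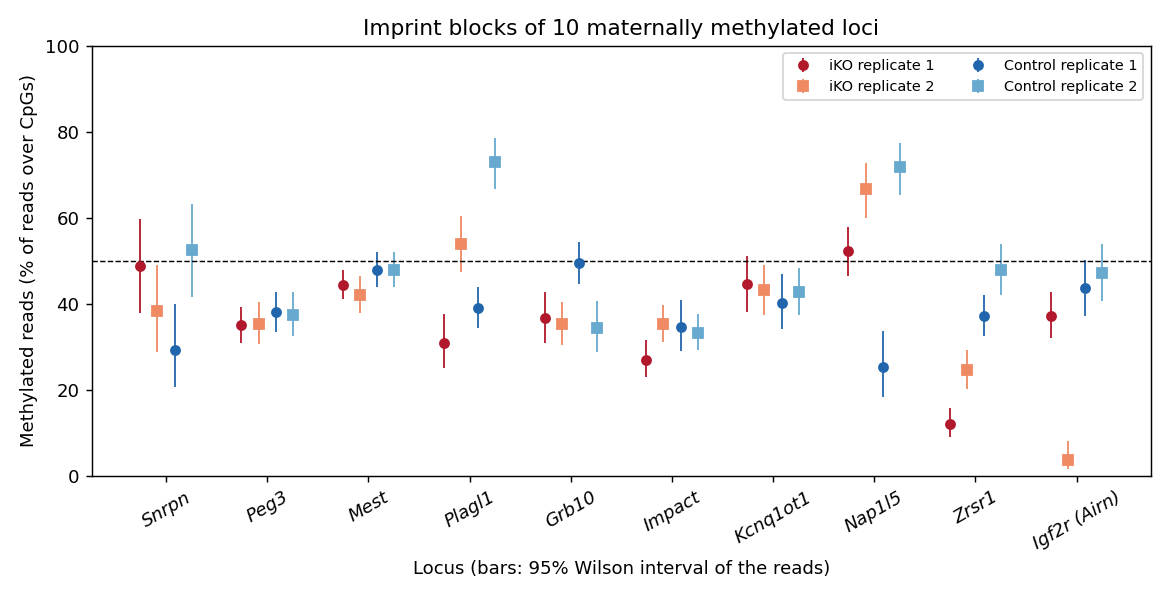
Level of each imprint block (y axis, methylated reads as a percentage of reads over CpGs) for the 10 loci (x axis) in each of the 4 libraries, with 95% Wilson intervals of the reads as bars and a dashed line at 50%. The Zrsr1 block stands at 11.9% and 24.5% in iKO and 37.2% and 47.9% in control, the Igf2r block at 3.57% in iKO replicate 2, and the Plagl1 and Nap1l5 blocks spread widely within a group.

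Zrsr1 encodes a protein related to the U2AF splicing factor and arose as a retrogene within Commd1. Its imprint block was methylated in iKO at 11.9% (95% Wilson interval 8.92 to 15.7) and 24.5% (20.2 to 29.3), and in control at 37.2% (32.5 to 42.1) and 47.9% (42.0 to 53.9), on 267 to 387 reads. Both iKO libraries were lower than both controls, and the intervals of the groups did not meet. The mean fell from 42.6% ± 7.59 (SD, n = 2) to 18.2% ± 8.90 (SD, n = 2), a difference of -24.4 points (adjusted p = 0.00684, quasi-binomial model with Benjamini-Hochberg adjustment over all blocks). CpG by CpG, 62 of 90 read CpGs in iKO replicate 1 and 47 of 102 in iKO replicate 2 had no methylated read, against 23 of 107 and 32 of 109 in the controls. Of the 82 CpGs read in all 4 libraries, 64, or 78.0%, had a lower mean level in iKO. Of all 1 kb bins tested 80.1% were lower, and neighbouring CpGs share fragments, so this count adds no separate support. The call was lost with edgeR (adjusted p = 0.118), with limma on logit levels (adjusted p = 0.299) and with the replicate block (adjusted p = 0.337). It was also lost without any single library (differences of -30.7 to -18.1 points). Across the genome 0 blocks were called with logit levels or the replicate block and 4 with edgeR, so these losses are not particular to Zrsr1. The Zrsr1 block's own dispersion, its spread between replicates relative to counting error, was 12.9983. The main model drew it towards 2.44, a value estimated from all blocks, which makes a call easier. The call was not tested without that step.

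Igf2r encodes the receptor that carries insulin-like growth factor 2 to lysosomes, and its maternal mark lies at the start of Airn, the RNA that silences Igf2r on the paternal copy. Its imprint block stood in iKO at 37.3% (32.0 to 42.8) and 3.57% (1.53 to 8.09), and in control at 43.6% (37.2 to 50.2) and 47.2% (40.7 to 53.9). One library, iKO replicate 2, was far below the other 3, which lay within 10 points of each other. The mean difference of -25.0 points was not called (adjusted p = 0.102), and without iKO replicate 2 it was -8.15. In iKO replicate 2, 63 of 67 read CpGs of the block had no methylated read, against 59 of 101, 35 of 80 and 24 of 91 in the other libraries. Both 1 kb bins of the block were low in that library, at 4.55% and 2.70%, on 66 and 74 reads. The bins on either side were not: at 12740001 the library stood at 77.8% and at 12743001 at 56.7%.

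Kcnq1ot1 is a long non-coding RNA that silences neighbouring genes on the paternal copy, and maternal methylation of its promoter keeps it off. Its imprint block stood at 44.5% and 43.2% in iKO and 40.3% and 42.8% in control. All 4 libraries lay within 5 points, and the mean difference of 2.31 points (pooled SD 1.41, adjusted p = 0.817) was not called. Its 2 bins of 1 kb differed in opposite directions. The bin at 143295001 stood at 46.4% and 45.9% in iKO and 31.7% and 40.6% in control (adjusted p = 0.411), and the bin at 143296001 at 42.7% and 37.6% against 51.6% and 52.7% (adjusted p = 0.420). The groups were apart in both, so the small difference of the whole block combines a higher and a lower bin, neither of them called. The pooled SD is the spread of the 2 replicates about their group mean, averaged over the groups as variances.

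Among the transcription regulators, Peg3, a zinc finger protein, had an imprint block at 35% and 35.3% in iKO and 38.0% and 37.5% in control. Both iKO libraries were lower, with a difference of -2.60 points (pooled SD 0.35, adjusted p = 0.679). With only the CpGs of the Peg3 block that had at least 5 reads in every library it was -29.8 points, also not called (adjusted p = 0.476). Plagl1, a zinc finger factor that restrains cell growth, had 30.9% and 54.0% in iKO and 39.1% and 73.1% in control. Its replicates lay 23.1 and 34.0 points apart, the groups overlapped, and the difference of -13.6 points (adjusted p = 0.529) was within the spread of the replicates. In control replicate 2, 68 of 95 read CpGs of the Plagl1 block had only methylated reads, against 8 of 75 and 18 of 86 in iKO and 19 of 111 in control replicate 1. Nap1l5, a retrogene within Herc3 related to nucleosome assembly proteins, had 52.2% and 66.7% in iKO and 25.2% and 71.8% in control. Control replicate 1 was the lowest and control replicate 2 the highest of the 4, and the difference of 10.9 points was smaller than the pooled SD of 24.4 (adjusted p = 0.827).

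Among genes of metabolism and signalling, Mest, an enzyme of the alpha/beta hydrolase fold, had 44.5% and 42.1% in iKO and 48.0% and 47.9% in control. Both iKO libraries were lower, with a difference of -4.67 points (pooled SD 1.17, adjusted p = 0.397). Grb10, an adaptor that dampens insulin signalling, had 36.6% and 35.2% in iKO and 49.5% and 34.5% in control. Control replicate 1 stood above the other 3, and the difference was -6.08 points (adjusted p = 0.309). Impact, a regulator of the translation kinase GCN2, had 27.0% and 35.4% in iKO and 34.7% and 33.3% in control, with overlapping groups and a difference of -2.80 points (adjusted p = 0.747). Snrpn encodes a protein of the spliceosome's small nuclear ribonucleoproteins, and its block had the fewest reads, 76 to 86 per library. It stood at 48.7% and 38.4% in iKO and 29.3% and 52.6% in control, with overlapping groups and a difference of 2.61 points (adjusted p = 0.885). The Snrpn block is 1 bin of 1 kb, and both adjoining bins were lower in iKO with groups apart. At 60003001 the levels were 52.8% and 17.9% in iKO and 72.9% and 66.7% in control. At 60005001 they were 46.9% and 44.1% against 78.1% and 66.7%. Neither bin was called (adjusted p = 0.0898 and 0.162, quasi-binomial model).

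The distance from 50% was measured next, since 1 methylated and 1 unmethylated copy would give that level. The mean over the 10 imprint blocks was 36.8% and 37.8% in iKO and 38.5% and 48.8% in control. Of these, 3 libraries lay within 2 points of each other and control replicate 2 stood above them. The iKO mean was 37.3% ± 0.70 (SD, n = 2) and the control mean 43.7% ± 7.33 (SD, n = 2), -6.33 points apart (two-sided exact permutation p = 0.333, the smallest that 2 against 2 libraries can give). It was -1.15 points without control replicate 2. The groups were separated only by the step from 37.8% to 38.5%, and they overlapped with CpGs read in every library (-3.74 points) and after thinning to equal total reads per library (-6.05 points, exact permutation p = 0.667 for both). Leaving out 1 locus at a time gave differences from -8.25 without Nap1l5 to -4.26 without Igf2r and -4.33 without Zrsr1, and the groups overlapped without Igf2r, Zrsr1 or Grb10. Regardless of sign, a block lay on average 13.6 and 16.3 points from 50% in iKO and 11.5 and 10.6 points in control, 3.87 points farther in iKO (exact permutation p = 0.333). Without iKO replicate 2 the difference was 2.52 points. It rested on Zrsr1, which lay 38.1 and 25.5 points from 50% in iKO and 12.8 and 2.06 in control, and on Igf2r, at 12.7 and 46.4 points against 6.42 and 2.78. It was 1.59 points with overlapping groups without Zrsr1 and 1.52 without Igf2r. Without both, which was computed after these values were seen, the other 8 blocks had the opposite order, at 10.6 and 11.4 points in iKO and 12.0 and 12.7 in control. Most blocks stood below 50%: 9 and 8 of 10 in iKO, 10 and 7 of 10 in control. The 95% Wilson interval held 50% in 3 and 1 of 10 blocks in iKO and in 3 and 4 of 10 in control. Reads were few per CpG, 1.37 to 3.99 in the blocks, and CpGs on 1 fragment come from the same copy, so these intervals cover counting error only and are too narrow.

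Several imprint blocks had replicates far apart. In the 9624 CpG-dense blocks at 25% to 75% with at least 100 reads in every library, the replicates differed by a median of 5.37 points in iKO and 5.77 in control, and by 16.8 and 17.8 points at the 95th percentile. Beyond those values lay Igf2r in iKO at 33.7 points, Plagl1 at 23.1 points in iKO and 34.0 in control, and Nap1l5 in control at 46.6. The control gap of Snrpn was 23.3 points, on fewer than 100 reads per library. At the other end, the replicates of Peg3 lay 0.38 points apart in iKO and 0.57 in control, and those of Mest 2.34 and 0.02. Single bins of these blocks had wider gaps that offset each other over the block. In the Peg3 bin at 6731001 the iKO replicates stood at 46.6% and 64.6%, and in the bin at 6730001 at 39.5% and 28.9%. In the Mest bins at 30734001 and 30737001 the controls stood at 66% and 84.4% and at 62.8% and 44.7%.

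Around the imprint blocks, the rest of every region was lower in iKO. Outside the block both iKO libraries lay below both controls at all 10 loci, with differences from -13.7 points at Zrsr1 to -5.60 at Impact; of all whole-gene regions tested, 79.9% had that order. At Kcnq1ot1, whose block was 2.31 points higher in iKO, the rest of the region stood at 70.3% and 69.2% in iKO and 78.1% and 78.4% in control. At Mest it stood at 64.2% and 63.9% against 73.3% and 74.0%, and at Peg3 at 73.4% and 69.5% against 80.9% and 83.2%. Averaged over loci, the rest of the regions was at 66.3% and 64.1% in iKO and 72.1% and 75.5% in control, a difference of -8.57 points (pooled SD 2.00, exact permutation p = 0.333).

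**Figure D2:**
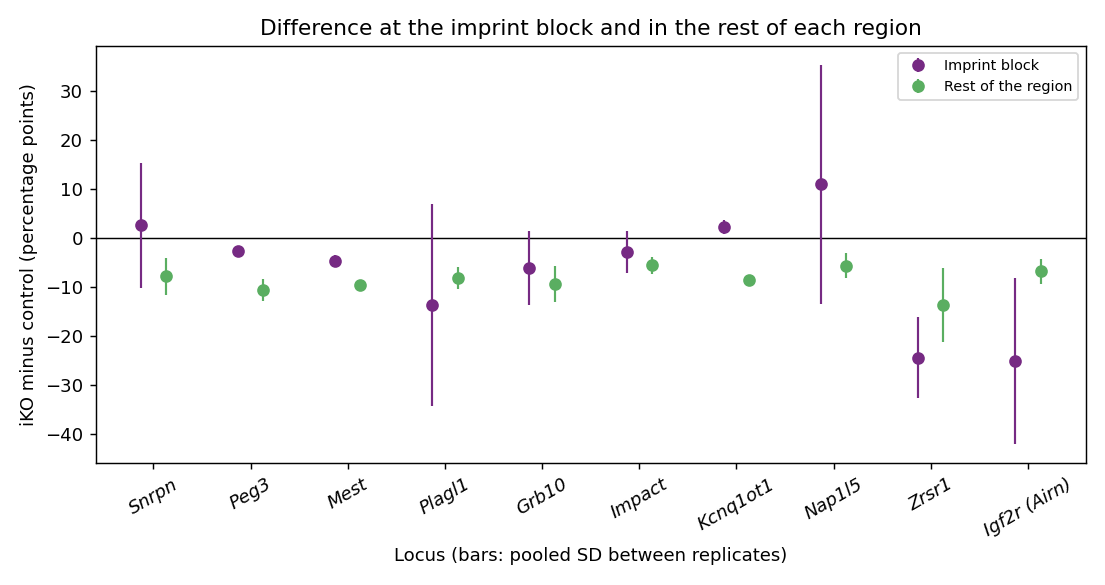
Difference iKO minus control (y axis, percentage points) at the imprint block and in the rest of the region for each of the 10 loci (x axis), with bars of 1 pooled SD between replicates. The rest of the region is below 0 at all 10 loci, from -13.7 to -5.60 points, while the imprint blocks range from -25.0 at Igf2r to 10.9 at Nap1l5 with wider bars at several loci.

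The change in iKO at the imprint blocks was not shown to differ from that in their surroundings. In each library the mean imprint block lay below the rest of the regions, by 29.5 and 26.3 points in iKO and 33.7 and 26.6 in control, so this gap overlapped between groups. It changed by 2.23 points (pooled SD 3.87, exact permutation p = 0.667), and the sign of that change turned to -1.29 points without control replicate 1. It was 5.75 points without control replicate 2, and 5.22 with groups apart for CpGs read in every library (exact permutation p = 0.333). The 36194 other CpG-dense blocks at 25% to 75% averaged 52.8% and 50.1% in iKO and 60.9% and 64.5% in control, a difference of -11.2 points. The imprint blocks' difference was smaller than theirs by 4.88 points, with a pooled SD of 3.86 and overlapping groups (exact permutation p = 0.667). That value was 1.48 without control replicate 1 and 8.27 without control replicate 2, and 7.46 with groups apart for CpGs read in every library (exact permutation p = 0.333). Relative to the control mean, the change was -14.5% in the imprint blocks, -11.6% in the rest of the regions and -17.9% in the other CpG-dense blocks. On that scale, which was not tested, the imprint blocks were lowered more than the rest of the regions, so that direction depends on the scale.

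**Figure D3:**
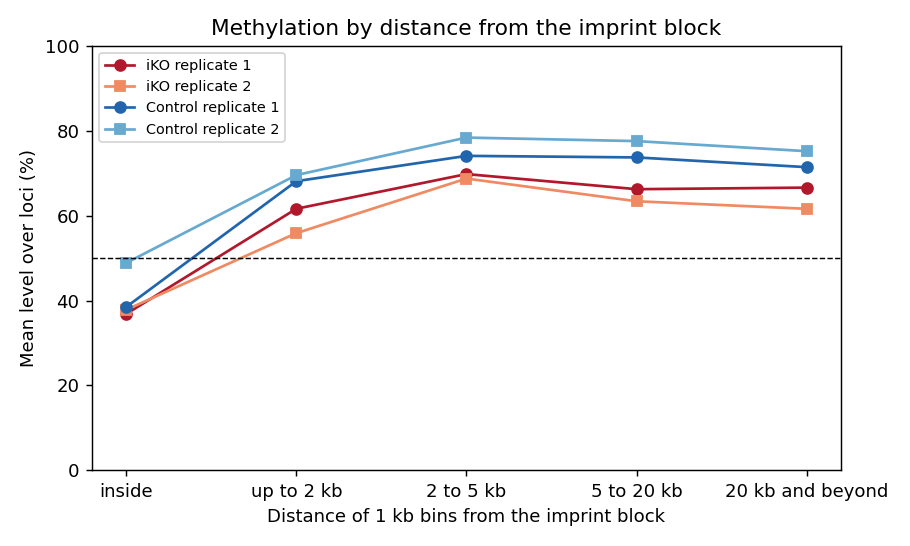
Mean level over loci (y axis, %) inside the imprint blocks and in 1 kb bins at growing distance from them (x axis, 5 classes; 10 loci, and 7 at 20 kb and beyond), with 1 line per library and a dashed line at 50%. Control levels average 43.7% inside the blocks and 68.8% to 76.2% outside, and both iKO lines lie below both control lines in every class.

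Outside the blocks, the mean level was higher in every library and the groups did not overlap at any distance. Up to 2 kb away it was 61.6% and 55.9% in iKO and 68.1% and 69.6% in control, a difference of -10.1 points. From 2 to 5 kb the difference was -6.98 points, from 5 to 20 kb -10.8, and at 20 kb and beyond, where 7 loci had bins, -9.20. Each class outside the blocks gave the smallest p that 2 against 2 libraries allow (exact permutation p = 0.333).

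Over whole regions, Zrsr1 was the only locus called by the call rule with all CpGs and all 4 libraries. With CpGs read at least 1 time in every library, Peg3 at -10.0 points and Grb10 at -10.3 were called too (adjusted p = 0.00511 and 0.00159, quasi-binomial model). With at least 5 reads, Snrpn at -11.6 and Grb10 at -12.4 points were called, and Zrsr1 could not be tested. All 10 regions were lower in iKO, as were 96.8% of all gene regions, and at 9 of 10 the groups did not overlap, against 79.9% of all, Nap1l5 being the exception. The model called 1 of 10 regions, where 12.9% of the 49138 gene regions tested were called. The median difference was -7.31 points over the 10 loci and -7.66 over all gene regions. The Zrsr1 region stood at 33.3% and 41.4% in iKO and 48.2% and 62.4% in control, a difference of -18.0 points (adjusted p = 0.0174, quasi-binomial model). Its call was lost with limma on logit levels (adjusted p = 0.0560), where 0.0265% of all gene regions were called. It was also lost without iKO replicate 1 (-13.9 points) or control replicate 2 (-10.9 points). Without either of these libraries the Grb10 region was called instead, at -12.3 and -10.6 points. With no minimum difference, 6 of 10 regions had an adjusted p under 0.05, against 30.5% of all gene regions: Zrsr1, Grb10 at -8.96 points, Peg3 at -8.80, Snrpn at -7.60, Igf2r at -7.26 and Kcnq1ot1 at -6.67. Plagl1 at -7.37 points, Mest at -6.75, Impact at -5.16 and Nap1l5 at -2.35 did not. The share of 6 in 10 was not tested against that of all gene regions, and regions were not matched for length or reads. Among the 6, the Snrpn region had 6380 to 8343 reads per library and the Zrsr1 region 641 to 820. Across the 10 loci the mean was 59.8% and 59.2% in iKO and 65.3% and 69.5% in control, a difference of -7.89 points (pooled SD 2.08, exact permutation p = 0.333).

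In 1 kb bins, 522 of the 944 had the 5 CpGs and 10 reads in every library that the test required. By the call rule 6 fell and 0 rose (quasi-binomial model, adjusted over 1551101 bins), where 0.971% of all bins tested were called in either direction. The groups did not overlap in 205 lower bins and 20 higher ones, or 39.3% and 3.83% of those tested, against 41.5% and 4.03% of all bins. In total 427 of 522, or 81.8%, were lower, against 80.1% of all bins, with a median difference of -8.05 points against -7.86. Among the loci, Nap1l5 had 4 of 9 bins lower and Zrsr1 10 of 11. The model gave every bin the same spread, so 1 outlying library is enough to call a bin. None of the 6 calls held without any single library, with limma on logit levels or in the fit with a replicate block. For the 5 named decreases the adjusted p was 0.451 to 0.459 on logit levels and 0.486 with the replicate block. In both of these fits 0 bins were called across the genome, so the losses are not particular to the 10 loci.

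The first bin of the Zrsr1 imprint block, at 22972001, stood at 8.38% and 18.3% in iKO and 36.6% and 50.3% in control, a difference of -30.1 points (adjusted p = 3.37e-08). Both iKO libraries were below both controls, on 159 to 265 reads. The largest called decrease was at 22980001, about 6 kb beyond the Zrsr1 block, with 42.9% and 52.5% against 83.7% and 87.8%, on 35 to 49 reads. Between them, the bin at 22974001 had the opposite order, at 49.2% and 65.6% in iKO and 27.1% and 48.8% in control; it was the only one of the 11 tested bins of Zrsr1 with a higher iKO mean.

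Grb10 had 2 called bins inside the gene and more than 50 kb from its imprint block. At 11970001 the levels were 54.5% and 55.7% in iKO and 87.9% and 91.3% in control, and at 11965001 54.5% and 39.7% against 82.0% and 78.4%. Both bins had non-overlapping groups, on 33 to 88 reads. In Mest, the bin at 30733001 at the edge of the imprint block stood at 25.7% and 38.0% in iKO and 60% and 55.7% in control, a difference of -26.0 points (adjusted p = 0.0237). The sixth called bin, at 13090001 in the Plagl1 imprint block, had overlapping groups, at 34.7% and 56.8% against 49.6% and 88.8%.

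No bin was called higher, and the 5 largest increases among non-overlapping bins with at least 15 CpGs are given as values. In the Peg3 imprint block the bin at 6731001 stood at 46.6% and 64.6% in iKO and 39.8% and 26.2% in control (adjusted p = 0.212). Other bins of the Peg3 block were lower in iKO with groups apart, with differences of -15.1 points at 6728001 (adjusted p = 0.310) and -14.5 at 6729001 (adjusted p = 0.213), and the bin at 6730001 differed by 0.94 points. The Kcnq1ot1 bin at 143295001, given above, was next, with 9.97 points. The Kcnq1ot1 bin at 143288001 stood at 76.4% and 88.2% against 75% and 73.0%. The Impact bin at 12955001, near the start of the gene, had 3.17% and 13.6% in iKO and no methylated read among 120 and 86 reads in control; its adjusted p was 0.0460 but its difference, 8.37 points, was under the 10 points required. The Plagl1 bin at 13101001 stood at 84.3% and 82.5% against 79.2% and 78.4%.

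**Figure D4:**
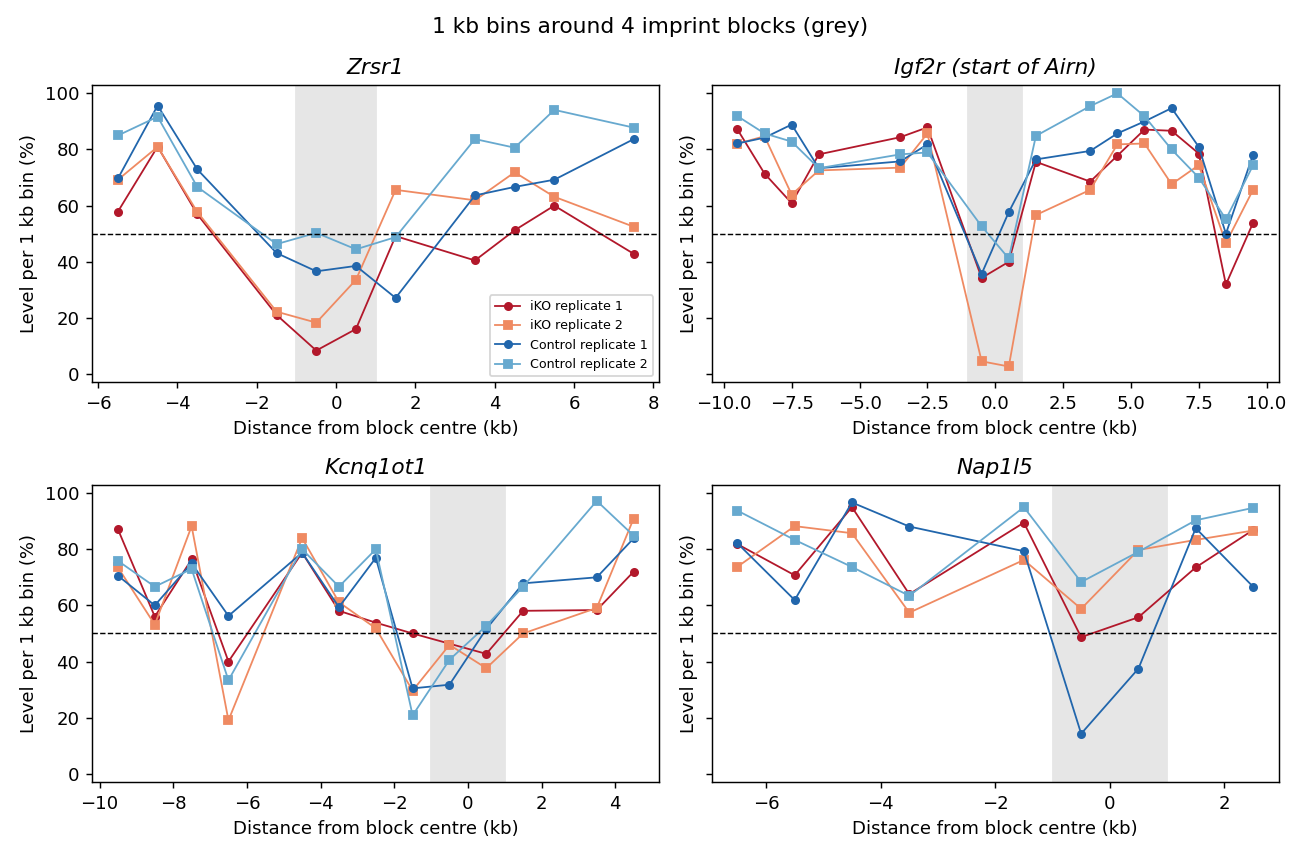
Level per 1 kb bin (y axis, %) against distance from the centre of the imprint block (x axis, kb; block in grey) at Zrsr1, Igf2r (start of Airn), Kcnq1ot1 and Nap1l5, with 1 line per library and a dashed line at 50%. At Zrsr1 both iKO lines run below both control lines inside the block, at Igf2r iKO replicate 2 alone drops to 4.55% and 2.70%, at Kcnq1ot1 the iKO lines lie above the controls in the first bin of the block and below them in the second, and at Nap1l5 control replicate 1 alone is low inside the block.

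The other 21 CpG-dense blocks of the regions included promoters free of methylation and methylated stretches of gene bodies. Of these 18, or 85.7%, were lower in iKO, against 83.6% of all CpG-dense blocks. The groups did not overlap in 10 of the lower ones, or 47.6% against 50.2%, and 1 was called, where 3.14% of all blocks were. The called block lay in Peg3, at 6707001 to 6712000 with 133 CpGs, and stood at 80.4% and 71.8% in iKO and 87.1% and 88.5% in control, a difference of -11.7 points (adjusted p = 0.0342, quasi-binomial model). Its call was lost with edgeR (adjusted p = 0.160), with limma on logit levels (adjusted p = 0.326) and with the replicate block (adjusted p = 0.337). It was also lost without any single library (differences of -16.0 to -7.42 points). As for the Zrsr1 block, these losses are not particular to this block, since at most 4 blocks were called across the genome in the first 3 settings. Promoter blocks stayed low in every library. The block over the Grb10 start had 6.24% and 4.79% in iKO and 7.51% and 6.59% in control, that over the Igf2r start 0% to 1.31%, and that over a Commd1 start beside Zrsr1 2.45% and 4.63% against 5.67% and 12.8%. The further Grb10 block at 11933001 stood at 58.8% and 71.3% in iKO and 63.8% and 76.4% in control. The 6 further blocks within Igf2r ranged from 66.2% to 92.3%. The Plagl1 block at 13127001 stood at 29.9% and 22.7% in iKO and 36.4% and 41.9% in control, with groups apart but no call (adjusted p = 0.393). Snrpn had 8 further blocks, of which 7 were lower in iKO and 0 were called, with differences from -25.2 to 0.65 points; the block at 60163001 had 20.8% and 6.45% against 30% and 29.1%.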

How the data were processed

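Bisulfite sequencing covered 4 libraries, 2 of Ogt iKO and 2 of control cells, all sorted mouse embryonic stem cells of the Ogt fl/fl genotype. The submitters' processing notes name BSMAP, Picard and the mm10 build, with no versions. Whether duplicate reads were removed before counting is not given in the sources used here, and copies of a fragment would make the counts and their intervals look more precise than they are. The deposited values are, per the file headers, read counts per CpG, methylated and total, and the authors' C/T-corrected depth, an expected count that discounts C/T variants. File names, which give genotype and replicate, matched each table to its sample. Mean depth was 3.36 to 4.05 reads per CpG, with no molecular identifiers.

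Methylated and total reads were summed over 49554 RefSeq gene regions, 1 kb bins and CpG-dense blocks. Features tested had at least 10 reads in every library, with at least 10 CpGs for gene regions and 5 for bins. This left 49138 gene regions. Python 3.11.15, pandas 2.3.3, NumPy 2.4.6, PyArrow 21.0.0 and SciPy 1.17.1 were used. A quasi-binomial logistic model with group as the only term was fitted in R 4.3.3, with the Pearson dispersion moderated by limma 3.58.1 and kept at 1 or more, an F test and Benjamini-Hochberg adjustment over all features. Alternatives were edgeR 4.0.16, limma on logit levels (0.5 reads added to each side), read minimums, thinning, the C/T-corrected depth, removal of very deep CpGs, other bin and block settings and leaving out each library. Models were tested on simulated data. Library means were compared by exact permutation over 6 arrangements.

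All 10 loci, their CpG-dense blocks (those within Snrpn and Igf2r partly by range), the imprint blocks found at 7 of 9 other imprinted loci and the called bins with non-overlapping groups were named. For decreases these were the 5 largest, and for increases, where none was called, the 5 largest among bins with at least 15 CpGs. The promoter sequence of Peg3, whose window overlaps the Usp29 transcript, is not shown. The loci, lists and tests were chosen with earlier results of these data known.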

Additional observations from a re-analysis of the deposited data

How the results depend on the processing

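The mean differences over the 10 loci kept their direction under every alternative run. For regions they lay between -10.2 and -5.82 points, and for imprint blocks between -11.5 and -1.15, the last without control replicate 2. The -10.2 came with at least 5 reads per CpG in every library, where only 5 of the 10 regions met the minimum for testing. The distance from 50% was 1.44 to 6.36 points larger in iKO, the lowest over the 8 loci with a block at 35% to 65%, where groups overlapped (exact permutation p = 1). That range left out Zrsr1 and Impact, whose blocks stood at 29.5% and 32.5% pooled over all 4 libraries. The pooled level includes the iKO libraries, so the low iKO level of Zrsr1 helped to leave it out. Values for the range of 35% to 65% are therefore no separate check. The change in the gap between imprint blocks and the rest of the regions turned to -1.20 points with an unweighted mean over CpGs, ran from -1.29 to 5.75 when 1 library was left out, and was 5.22 with groups apart (exact permutation p = 0.333) where each CpG had to have 1 read per library. Against other CpG-dense blocks it ran from 1.48 to 8.27 with 1 library left out. There it was 7.46 at 1 read and 7.30 for blocks at 35% to 65%, both with groups apart (exact permutation p = 0.333). The groups' imprint block means overlapped at 1 read (-3.74 points), after thinning (-6.05), for blocks at 35% to 65% (-4.52) and for the block with the most CpGs (-5.00).

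Of 10 regions, 6 were called with no minimum difference (30.5% of all gene regions) and 0 with at least 20 points (0.189%). With at least 1 read per CpG in every library 3 were called (14.2%), and with at least 5 reads 2 of the 5 testable (9.28%). By limma on logit levels 0 were called (0.0265%), where 2 had an unadjusted p under 0.05 against 9 in the quasi-binomial model. Leaving out 1 library gave 1 to 3 (3.8% to 27.6% of all gene regions): Grb10 alone without iKO replicate 1 or control replicate 2, Zrsr1 alone without iKO replicate 2, and Zrsr1, Snrpn and Plagl1 without control replicate 1. Called bins numbered 13 of 436 with bins of 2 kb (2.2% of all such bins). The count was 0 with a minimum of 5 reads per CpG, which left 1 bin testable, 0 with limma on logit levels and 0 without any 1 library, with 34 to 67 unadjusted p under 0.05; across the genome 0 bins were called in each of these library and logit fits. Of the CpG-dense blocks, 1 was called with at least 20 points (1.85% of all blocks) and 0 of the 2 testable with at least 5 reads (0.157%). With logit levels, edgeR or 30 CpGs per bin 0 were called (3 to 8 with an unadjusted p under 0.05), and no call held with 1 library left out. With 15 CpGs per bin 5 of 51 were called (7.29% of all such blocks). Across the genome 0 blocks were called with logit levels or 1 library left out, 4 with edgeR and 5 with 30 CpGs per bin, so these counts of 0 are not particular to the 10 loci.

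The Zrsr1 imprint block held its call in 4 of 11 alternatives (adjusted p 0.000715 to 0.461), with differences of -30.7 to -18.1, and the Zrsr1 region in 8 of 11. The Impact region turned to 0.69 points with at least 5 reads, and the Gnas block to -3.49 with at least 1 read and -0.12 after thinning. With 1 library left out, where the spread of the remaining library is taken from the other group, the sign also turned for the Nap1l5 region (-9.25 to 4.55) and the imprint blocks of Snrpn (-9.04 to 14.3), Plagl1 (-30.7 to 3.36), Grb10 (-13.6 to 1.43), Impact (-6.98 to 1.38), Nap1l5 (-12.4 to 34.2), Peg10 (-8.65 to 10.8), Peg13 (-1.63 to 4.40), Gnas (-2.44 to 2.73) and H19 (-1.15 to 5.14). Why these calls and signs changed was not tested, beyond the fewer reads or libraries each setting leaves.

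Per the deposited names, the cells of both genotypes are numbered ESC1 and ESC2, and no label says whether a number marks a shared cell source. Correlations of replicate differences (-0.05 over gene regions, -0.03 over blocks) cannot decide this, as counting error weakens them. With the replicate block, 1 region (8.07% of all gene regions), 0 bins and 0 CpG-dense blocks were called (0 of each across the genome), with 54 bins and 7 blocks at an unadjusted p under 0.05. The pair differences then had an SD of 6.64 points over imprint blocks and 3.28 over regions. At least 5 reads per CpG left 1 of 10 imprint blocks, so its means are not given. Reads were fewest in the Snrpn block, at 76 to 86 per library, and reads per CpG in the Igf2r block in iKO replicate 2, at 1.37.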

Other observations

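Other imprinted loci were read in the same way. Of 7 further maternally methylated loci, 5 had an imprint block: Peg10, a gene derived from a retrotransposon, Peg13, a non-coding RNA, Inpp5f, a phosphoinositide phosphatase, Gnas, a G protein subunit, and Nnat, a membrane proteolipid. None of the 5 was called (quasi-binomial model), against 3.14% of all CpG-dense blocks, and all 5 had overlapping groups. With CpGs read at least 1 time in every library, the Inpp5f block was called at -13.8 points (adjusted p = 0.0493, same model), where 5.08% of all blocks were called. Their mean was 41.6% and 40.5% in iKO and 38.6% and 42.7% in control, a difference of 0.41 points (pooled SD 2.11, exact permutation p = 1). The Peg10 block stood at 39.2% and 44.5% in iKO and 50.5% and 31.0% in control, and the Peg13 block at 46.3% and 41.0% against 39.3% and 45.3%. The Inpp5f block stood at 26.9% and 37.0% against 33.7% and 47.9%, the Gnas block at 35.9% and 33.6% against 32.0% and 37.2%, and the Nnat block at 59.9% and 46.4% against 37.6% and 52.1%. No order of the groups was common to them. Inpp5f also held a smaller block in the level range of the imprint blocks, at 128687001 to 128689000 with 86 CpGs, named after its values were seen. It stood at 53.6% and 52.3% in iKO and 44.6% and 37.7% in control. Both iKO libraries were higher there, by 11.8 points on average, with no call (adjusted p = 0.166, quasi-binomial model). The choice by CpG number passed over it, and which block carries the imprint was not tested.

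Mcts2 and Peg12 had no block between 25% and 75%, and their CpG-dense blocks were low in all libraries but 1. The Mcts2 block, named after its values were seen, stood at 1.87% in iKO replicate 1, 33.4% in iKO replicate 2 and 1.84% and 2.63% in control. The model called it higher (adjusted p = 0.0150) although iKO replicate 1 was at the level of the controls, so the call rests on 1 library. The other called block of these loci, also named after its values were seen, lay in Peg10 at 4754001 to 4758000. It stood at 67.2% and 57.7% in iKO and 85.3% and 90.5% in control, a difference of -25.4 points with groups apart (adjusted p = 0.00300, quasi-binomial model). Without any single library, with the replicate block or with limma on logit levels, 0 blocks were called across the genome, these 2 included. The Peg12 block ranged from 2.09% to 5.48%.

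Of the paternally methylated loci, H19 had an imprint block at 49.1% and 55.4% in iKO and 49.2% and 51.4% in control, with overlapping groups. The block chosen for Meg3 held the start of the gene, and nothing farther than 5 kb from Meg3 was examined. This block stood at 35.6% and 29.5% in iKO and 38.8% and 56.8% in control, both iKO libraries being lower. Its difference of -15.3 points was not called (adjusted p = 0.0520, quasi-binomial model). It was called with at least 1 read per CpG in every library (adjusted p = 0.0379) and after thinning (adjusted p = 0.0428), where 5.08% and 2.84% of all blocks were called. The difference ran from -24.3 to -6.26 points when 1 library was left out. The whole Meg3 region was called lower, by the same model, at -10.3 points (adjusted p = 0.0125), against 12.9% of all gene regions.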
